A study of Mus musculus with 208 samples.

Results

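Oxidative phosphorylation is the last step of respiration, in which the mitochondrial inner membrane passes electrons from NADH and succinate to oxygen and uses the proton gradient this builds to make ATP. The genes described here are nuclear genes named for its subunits and their isoforms, 85 of the 47231 genes that the tables list in all. They were chosen by symbol: Nduf followed by a, b, c, s or v and a number, Sdha to Sdhd, and every symbol that starts with Uqcr, with Cox and a number from 4 to 8, or with Atp5, without the pseudogenes marked -ps. Of these, 83 are listed for each tissue and for embryos, except ileum with 84. By complex, a table holds 35 genes for complex I, 4 for complex II, 8 for complex III, 19 for complex IV and 17 for complex V. Ndufa4 was first named as a complex I subunit and is counted with complex IV, where it is now placed. Because the choice follows symbols, it leaves out subunits with other symbols, such as Cyc1 of complex III. It also takes in genes such as Atp5s, a factor related to the ATP synthase that is counted with complex V. The counts are therefore of these symbols and not of every subunit.

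The study asked whether traits of germ-free (GF) mice are passed to offspring through the gametes, and its RNA-seq covers 208 samples in 21 groups of mice and embryos. The mice were wild type (WT) and conventionally raised (CR) or GF, and the study's methods describe both colonies as C57BL/6. The study mated GF and CR mice in a conventional facility and describes the offspring of GF parents as colonized with microbes. Of the mice that gave tissue, only the F0 GF mice were therefore germ-free. Crosses are named with the father before the mother, so an F1 mouse or embryo named GF×CR has a GF father and a CR mother. F2 groups carry the name of the F0 cross, so F2 GF×CR mice had a GF grandfather. The study mated F1 GF×CR females to CR males and F1 GF×GF females to GF males, or in another scheme littermates. The labels do not say which scheme gave the F2 skin. Sebaceous glands (SGs) were cut by laser from fixed, paraffin-embedded skin of F0 mice (3 CR, 3 GF) and of F1 mice with CR parents (2) or GF parents (3). Back skin came from F1 mice (5 CR×CR, 3 GF×GF, 3 GF×CR) and F2 mice (5 CR×CR, 3 GF×GF, 6 GF×CR), and distal ileum and liver came from F1 mice (4 CR×CR and 3 GF×CR each). Single embryos after in vitro fertilization (IVF) were taken at the 4-cell stage (25 CR×CR, 9 CR×GF, 15 GF×CR, 21 RAG×WT) and as morulae (43 CR×CR, 17 GF×CR, 28 RAG×WT). RAG×WT embryos came from sperm of Rag2-deficient males, which lack mature T and B cells, and WT eggs, so the embryos themselves carry a normal maternal copy. Sex, litter and IVF experiment are not in the labels, and nothing says that tissue samples of a group came from separate litters. The study describes its 4-cell embryos as coming from 3 replicates of IVF, so single embryos are not independent replicates of a cross. All p-values therefore measure the spread between these samples.

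The tissue values are taken as CPM, read counts scaled so that every sample has nearly the same total. For liver the study's methods name TPM instead, as described under the processing. The embryo values are taken as TPM, which also correct for the length of the transcript. Levels of different genes are therefore compared only within embryos. Between 11135 and 16779 genes reached 1 CPM in a tissue sample and between 6429 and 10845 genes reached 1 TPM in an embryo. Differences were tested as log2(value + 0.5) with limma over all genes that reached 1 in no fewer samples than the smaller group has, with Benjamini-Hochberg adjustment over all of them, and a gene is called at an adjusted p under 0.05. Rag2 was listed at 0 in all but 4 of the 158 embryos, including 48 of the 49 RAG×WT embryos, so it gives no check of that label. Between the stages, 5 of 6 tested oocyte markers fell and 5 of 6 tested trophectoderm markers rose in CR×CR embryos, as the stage labels say.

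Complex I takes electrons from NADH, complex II takes them from succinate, complex III passes them to cytochrome c, complex IV hands them to oxygen, and complex V is the ATP synthase. Each of complexes I, III, IV and V also holds subunits encoded by the mitochondrial genome, so their assembly draws on both genomes, while complex II is wholly nuclear. Several complex IV subunits exist as pairs of isoforms, of which Cox6a2, Cox7a1 and Cox8b are known as the heart and skeletal muscle forms and Cox6a1, Cox7a2 and Cox8a as the forms of most other tissues.

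Promoters of the Cox8 isoform pair, of the general isoform Cox6a1 and of Ndufa7 and Uqcr11, described further on, are shown here, as the 250 bases before the start of transcription in RefSeq (GRCm38.p6), to set side by side the sequence in front of genes with unlike and like levels. Capitals mark matches to the 4 motifs searched on both strands, which were CGCATGCG (nuclear respiratory factor 1, NRF1), CGGAAG (ETS family), AAGATGG (YY1) and CAGCTG (an E-box), none of which contains another.
Cox6a1, chr5:115348959-115349208, minus strand: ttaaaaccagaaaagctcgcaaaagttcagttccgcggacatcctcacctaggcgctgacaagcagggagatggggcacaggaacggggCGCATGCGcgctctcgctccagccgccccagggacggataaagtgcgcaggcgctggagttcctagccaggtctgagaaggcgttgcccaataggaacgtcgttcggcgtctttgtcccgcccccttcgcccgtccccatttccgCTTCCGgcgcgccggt
Cox8a, chr19:7217617-7217866, minus strand: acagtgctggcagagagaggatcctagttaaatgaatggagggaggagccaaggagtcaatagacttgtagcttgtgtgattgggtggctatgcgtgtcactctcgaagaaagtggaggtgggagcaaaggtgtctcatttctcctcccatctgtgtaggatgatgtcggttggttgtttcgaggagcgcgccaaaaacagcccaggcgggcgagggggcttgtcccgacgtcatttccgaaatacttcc
Cox8b, chr7:140900447-140900696, minus strand: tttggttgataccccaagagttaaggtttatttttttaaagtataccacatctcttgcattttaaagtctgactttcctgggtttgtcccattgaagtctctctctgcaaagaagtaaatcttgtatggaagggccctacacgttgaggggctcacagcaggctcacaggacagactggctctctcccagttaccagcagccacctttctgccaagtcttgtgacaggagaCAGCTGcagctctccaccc
Ndufa7, chr17:33824322-33824571, plus strand: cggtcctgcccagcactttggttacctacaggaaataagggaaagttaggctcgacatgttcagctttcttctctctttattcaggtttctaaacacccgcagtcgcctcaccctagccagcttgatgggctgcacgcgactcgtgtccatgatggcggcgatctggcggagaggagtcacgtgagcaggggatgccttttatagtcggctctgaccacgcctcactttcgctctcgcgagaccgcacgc
Uqcr11, chr10:80406822-80407071, minus strand: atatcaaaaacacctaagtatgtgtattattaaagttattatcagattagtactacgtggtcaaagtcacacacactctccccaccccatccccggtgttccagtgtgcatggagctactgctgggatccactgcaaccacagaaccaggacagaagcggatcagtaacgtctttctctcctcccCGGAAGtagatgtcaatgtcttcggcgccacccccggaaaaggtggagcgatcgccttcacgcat

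In the Cox6a1 window the NRF1 motif began 161 bases before the start and the ETS motif, read on the other strand, 16 bases before it. The Cox8b window held an E-box 19 bases before the start and no NRF1 or ETS match, and the Uqcr11 window held an ETS match 65 bases before the start. Cox8a and Ndufa7 had none of the 4 motifs in this window. Of the 85 members 66 had a promoter in the table, and 6 of these (9.09%) held the NRF1 motif against 1.58% of the 27025 genes in the table. The ETS motif stood in 18 members (27.3%, all genes 13.8%), the E-box in 6 (9.09%, all genes 12.7%) and the YY1 motif in 0 (all genes 4.51%). These are matches of letters in a short window and describe the sequence only.

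Cox6a2, the muscle form of subunit 6a, ranged from 21.8 to 69.2 CPM over the 25 skin samples with a median of 39.1 CPM. It was listed at 0 in 10 of the 11 SG samples and reached at most 0.774 CPM in ileum and 0.341 CPM in liver, so no sample of another tissue overlapped with skin. Its partner Cox6a1 ran the other way, with 10.5 to 33.1 CPM in skin (median 21.4), 38.7 to 80.4 CPM in SGs (61.1), 243 to 551 CPM in ileum (332) and 474 to 583 CPM in liver (515). Skin was the tissue with the lowest Cox6a1 values, and the ranges of the 4 tissues overlapped only between ileum and liver. In embryos Cox6a1 had medians of 918 TPM (4-cell) and 1295 TPM (morula), while Cox6a2 was listed at 0 in 67 of 70 4-cell embryos and 81 of 88 morulae. The tables of the tissues were normalized separately, and these levels are descriptions.

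Cox8b and Cox8a, the muscle and general forms of subunit 8, showed the same split. Cox8b had a median of 46.7 CPM in skin (22.3 to 74.3), against 0.814 CPM in SGs (0.111 to 1.12), at most 2.34 CPM in ileum and at most 0.390 CPM in liver, and it was listed at 0 in every embryo. Cox8a had medians of 23.9 CPM in skin, 88.8 CPM in SGs, 269 CPM in ileum and 398 CPM in liver, with neighbouring ranges overlapping only between ileum and liver. Cox7a1, the muscle form of subunit 7a, was less restricted. It had medians of 24.4 CPM in skin (11.1 to 41.9) and 21.1 CPM in ileum (13.5 to 34.1), which overlapped, and of 0.322 CPM in SGs and 3.27 CPM in liver, and it was detected in most embryos (medians 38.7 TPM at the 4-cell stage and 65.0 TPM in morulae). Skin samples also held skeletal muscle transcripts, with sums over 16 muscle markers of 12439 to 34873 CPM in F1 skin of the GF×CR table, whereas SG samples had 16.4 to 264 CPM with Ckm and Myh4 at 0. In these bulk samples a different number of cells of a type and a different amount of RNA per cell cannot be told apart.

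**Figure D1:**
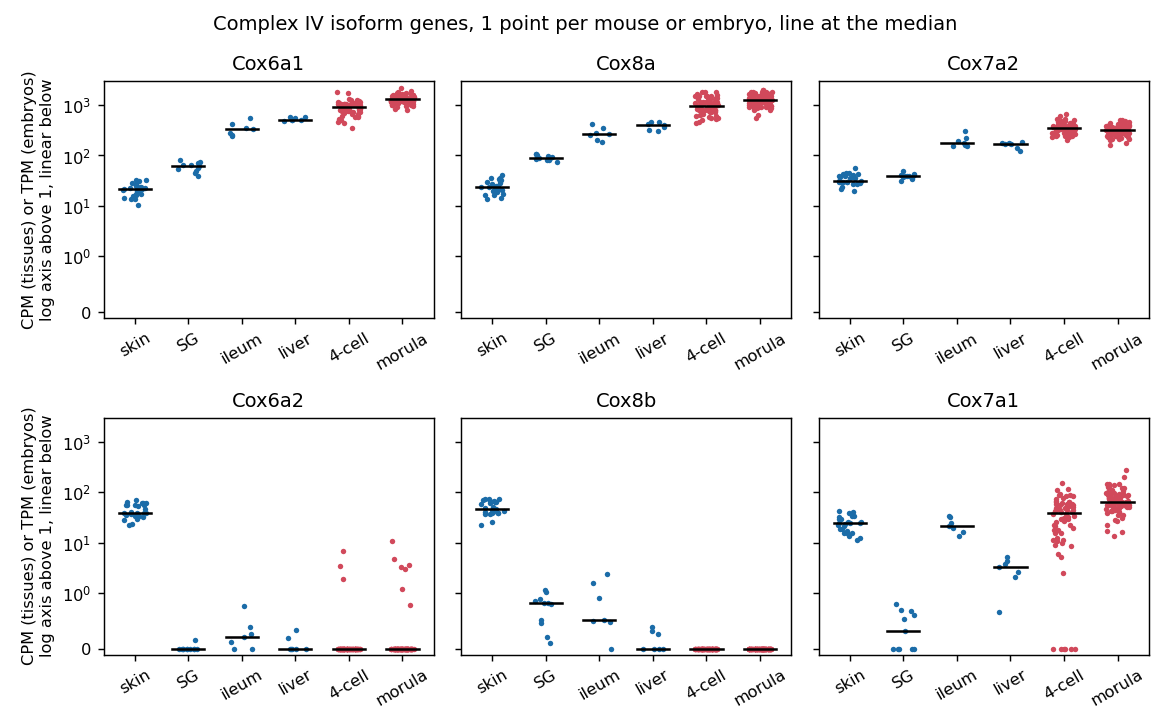
Levels of the muscle and general isoforms of complex IV subunits in each sample of skin, SGs, ileum and liver (CPM) and in single embryos (TPM), on an axis that is log above 1 and linear below. Each point is a sample, the line is the median, and Cox6a2 lies at 21.8 to 69.2 CPM in skin and at or near 0 in the other tissues.

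Other isoforms were low in the tissues. Cox4i2, a form of subunit 4 known from lung, stayed at or under 1.44 CPM in tissues and had a median of 3.77 TPM in 4-cell embryos (13 of 70 at 0) and of 0 TPM in morulae (65 of 88 at 0). Cox6b2, known as a testis form, had medians of 25.4 TPM in 4-cell embryos (0 to 153), 13.8 TPM in morulae (0 to 65.4), 7.70 CPM in ileum, 1.41 CPM in skin, 0.772 CPM in SGs and 0.551 CPM in liver. A few subunits without a tissue isoform also differed between tables. Ndufa9, in the quinone-binding part of complex I, was at 0 to 9.85 CPM in SGs and 0 to 5.59 CPM in skin, against 41.7 to 141 CPM in ileum and 98.1 to 120 CPM in liver. Ndufs8, an iron-sulfur subunit at the quinone site, was at 0 to 12.3 CPM in SGs and 2.26 to 6.09 CPM in skin, against 38.98 to 92.4 CPM in ileum and 151 to 254 CPM in liver. Ndufa4 was at 0 to 6.59 CPM in SGs and 0 to 4.62 CPM in skin and at 276 to 445 CPM in liver. How the authors' gene tables split reads between copies of these genes was not tested.

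Embryos give levels per length. At the 4-cell stage the highest CR×CR medians were Ndufa12 in complex I (408 TPM), Sdhb in complex II (130 TPM), Uqcrb in complex III (863 TPM), Cox4i1 in complex IV (1103 TPM) and Atp5b, the catalytic beta subunit of the ATP synthase, in complex V (1243 TPM). The lowest were Ndufs4 (15.2 TPM), Sdhc (28.8 TPM), Uqcrc2 (99.8 TPM), Cox6a2 (0 TPM) and Atp5s (19 TPM). In morulae the highest were Ndufa3 (910 TPM), Sdhb (253 TPM), Uqcrb (1464 TPM), Cox6b1 (1494 TPM) and Atp5b (1806 TPM). Subunits of complex I thus had medians that differed by more than 10 times at both stages, although the complex is built from fixed numbers of them.

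Most of the called members came from the comparison of embryo stages. In CR×CR embryos, 67 of 79 tested members were higher in morulae than in 4-cell embryos and 2 were lower (84.8% and 2.53% of the members; 41.6% of the 10485 genes tested were called higher and 27.5% lower). The median log2 fold change of the members was 0.53, against 0.23 over all genes tested, and 0.66 against 0.35 under median ratio scaling. All 4 members of complex II, all 8 of complex III and 32 of 35 of complex I were called higher, with medians of 1.20, 0.63 and 0.58. In complex IV 11 of 15 were higher and 1 lower (median 0.49), and in complex V 12 of 17 were higher and 1 lower (median 0.41). The stages stand in separate tables, so stage and table cannot be told apart.

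Of the single members, Ndufa7, a supernumerary subunit of the quinone module of complex I, went from a median of 243 TPM (lowest 143, highest 417) in the 25 4-cell embryos to 563 TPM (374 to 879) in the 43 morulae. Its log2 fold change was 1.20 (SE 0.09, adjusted p = 5.28e-20, limma, Benjamini-Hochberg), and only the ends of the ranges overlapped. Ndufa3, in the membrane arm, went from 334 TPM (156 to 668) to 910 TPM (488 to 1605), a log2 fold change of 1.397 (adjusted p = 1.14e-18, limma). Uqcrc2, a core protein of complex III, went from 99.8 TPM (54.3 to 158) to 208 TPM (99.6 to 265), a log2 fold change of 1.05 (SE 0.08, adjusted p = 5.36e-19, limma). For both genes the ranges of the stages overlapped in part.

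Sdhc, the membrane anchor of complex II with the lowest level of its 4 subunits, rose from 28.8 TPM (3.87 to 60.5) to 78.3 TPM (36.9 to 169), a log2 fold change of 1.61 (SE 0.16, adjusted p = 2.75e-14, limma). In complex IV, Cox5b, a subunit of the general form, rose from 325 to 679 TPM in the median (log2 fold change 1.04, adjusted p = 5.82e-14, limma). Cox7b had the largest rise of all members, from 15.96 TPM (0 to 92.6) to 104 TPM (0 to 207), a log2 fold change of 2.52 (SE 0.35, adjusted p = 2.58e-09, limma). Cox7a1, a muscle form in adult tissue, rose from 19.6 to 64.1 TPM (log2 fold change 2.25, adjusted p = 3.46e-06, limma). It was not called in set B of the sets defined with the crosses, with a log2 fold change of 2.86 among CR×CR embryos of set A and 0.17 (adjusted p = 0.618, limma) among those of set B. In complex V, Atp5d, a subunit of the central stalk, rose from 392 to 757 TPM (log2 fold change 1.18, adjusted p = 7.7e-16, limma).

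The 2 members that fell were Cox4i2 and Atp5s, neither of them a fixed part of the enzyme in most tissues. Cox4i2 went from 2.81 TPM (0 to 18.4) to 0 TPM (0 to 2.74), a log2 fold change of -1.88 (adjusted p = 9.03e-08, limma). Atp5s, a factor related to the ATP synthase, went from 19 to 12.2 TPM (log2 fold change -0.62, adjusted p = 0.00112, limma), and had -0.56 (adjusted p = 0.053, limma) within set B. Both were among the lowest members of their complexes at both stages.

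The other crosses showed the same direction in their own fits, each between other embryos. In GF×CR embryos 61 of 78 tested members were called higher and 1 lower (24.4% of all genes higher, 27.9% lower), with a median of 0.67 against -0.06 over all genes. In RAG×WT embryos 59 of 79 were higher and 1 lower (32% higher and 30.9% lower over all genes), with a median of 0.57 against 0.04. In GF×CR embryos Ndufa3 had no overlap between stages, with 311 TPM (69.4 to 527) against 870 TPM (631 to 1391). The same held there for Ndufb9, a membrane arm subunit (238 TPM, 107 to 348, against 524 TPM, 357 to 694), and Uqcrc2 (97.8 TPM, 41.2 to 135, against 199 TPM, 146 to 240). These 3 of 78 members (3.85%) stand beside 2.96% of all genes tested without overlap. The gene that fell in RAG×WT embryos, Ndufs8 (log2 fold change -0.23), turned to 0.02 under median ratio scaling, and the gene that fell in GF×CR embryos was Cox6b2 (log2 fold change -1.89).

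Over the 3 crosses, 51 of the 78 members tested in all of them were called higher each time, 24 of 35 in complex I, all 4 in complex II, 6 of 8 in complex III, 9 of 14 in complex IV and 8 of 17 in complex V. The same count over all genes was not made. In the single fits 41.6% (CR×CR), 24.4% (GF×CR) and 32% (RAG×WT) of all genes were called higher. The 9 that were called higher in no cross were Atp5c1, Atp5g1, Atp5s, Atp5sl, Cox6b2, Cox7a2, Cox7a2l, Ndufb11 and Ndufb2. Cox7a2, the general form of subunit 7a, had medians of 358 TPM over all 4-cell embryos (203 to 667) and 317 TPM over all morulae (165 to 513).

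**Figure D2:**
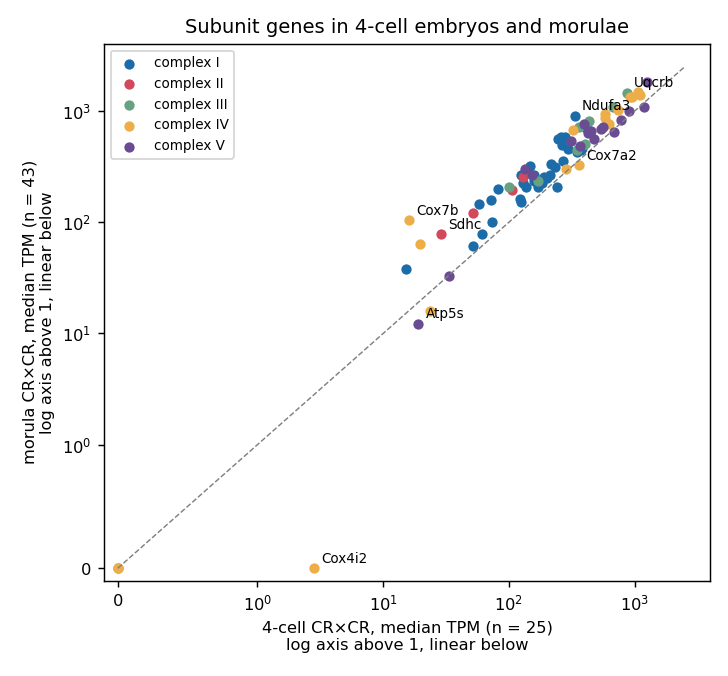
Median TPM of each member in 25 CR×CR 4-cell embryos (x axis) and 43 CR×CR morulae (y axis), both on axes that are log above 1 and linear below, coloured by complex, with the line of equal values. Of 79 tested members 67 were called higher in morulae, and Cox4i2 and Atp5s lie under the line.

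Genes that work beside the complexes were read from lists. Their counts in CR×CR embryos stand beside 41.6% of all genes called higher and 27.5% called lower. In CR×CR embryos 13 of 17 tested genes of the citric acid cycle were higher in morulae (median log2 fold change 0.96), among them Suclg1 (1.33) and Sucla2 (1.00). Of the electron carriers and related enzymes 10 of 11 were higher (median 1.07), among them Cyc1, the cytochrome c1 of complex III (1.07), and Etfb, which feeds electrons from fatty acid oxidation (2.39). Assembly factors of the complexes were split, with 23 higher and 10 lower of 44 (median 0.34). Ndufaf3, an assembly factor of complex I, rose from a mean of 3.01 to 38.8 TPM while Ecsit, another, fell by 1.57 on the log2 scale. The mitochondrial ribosome was split as well, with 33 higher and 14 lower of 77 (median 0.15), a share of higher genes close to that over all genes. Of the regulators of mitochondrial genes, 7 were higher and 7 lower of 19, with Ppargc1b at 2.15 and Tfb2m at -1.70. Transcripts of the mitochondrial genome are not in the embryo tables used here.

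The crosses were compared within each stage. Embryos fall into sets A and B by which of Marchf2 and Mtarc2, both renamed genes, has the higher value. This split was found after the data were seen. It may reflect the annotation with which the values were made, which the labels do not state. A batch of IVF, library or sequencing cannot be told apart from it. CR×CR embryos are in both sets (19 in A and 6 in B at the 4-cell stage, 21 and 22 as morulae), all GF×CR and CR×GF embryos are in A and all RAG×WT embryos are in B. Within CR×CR morulae, 19 of 78 members were lower and 1 higher in set B than in set A (25.6% of the members against 10.7% of all genes), with a median of -0.11 against 0.16. Cox6c, a general complex IV subunit, was lower in set B by a log2 difference of -0.90 (adjusted p = 9.93e-10, limma), Uqcrb had -0.46 (adjusted p = 1.78e-06, limma) and Atp5k -0.54 (adjusted p = 4.76e-06, limma). In 4-cell embryos 0 of 80 members differed between sets (0.0276% of all genes; medians -0.14 and 0.22). Counts, medians and leading genes of RAG×WT embryos are therefore also given against set B controls.

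**Figure D3:**
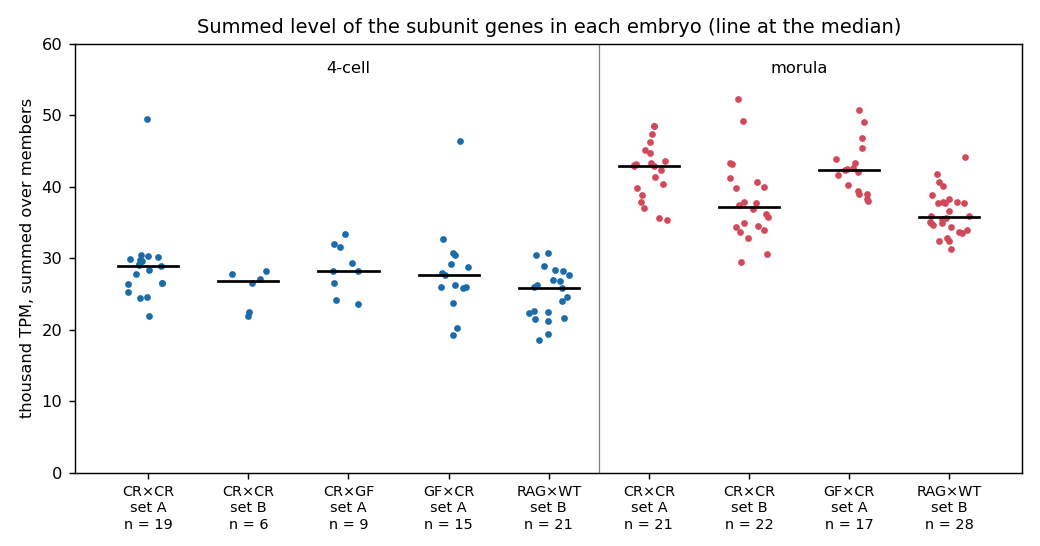
Summed TPM of the members in each embryo, by stage, cross and set, with the median of each group as a line. At the morula stage CR×CR embryos of set A have a median of 42934 TPM and those of set B 37171 TPM, and RAG×WT embryos 35736 TPM.

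At the 4-cell stage, RAG×WT embryos had 11 members lower and 1 higher of 79 compared with CR×CR embryos (13.9% lower; over all genes 5.53% were called, 1.22% lower and 4.31% higher). The median of the members was -0.15, against 0.17 over all genes. Cox6c went from 579 TPM (344 to 1001) in the 25 CR×CR embryos to 350 TPM (90.6 to 609) in the 21 RAG×WT embryos, a log2 fold change of -0.87 (SE 0.16, adjusted p = 0.000495, limma), with overlapping ranges. Complex IV held 4 of the lower genes, among them Cox7c (626 to 458 TPM in the median, -0.52, adjusted p = 0.0259), Ndufa4 (-0.49, adjusted p = 0.0359) and Cox4i1 (1103 to 855 TPM, -0.35, adjusted p = 0.0407, limma). Complex V held another 4, Atp5c1, the central stalk subunit gamma (680 to 547 TPM, -0.30, adjusted p = 0.0151), Atp5g3, a copy of the gene for the c ring (152 to 70.7 TPM, -0.81, adjusted p = 0.0164), Atp5l (428 to 282 TPM, -0.67, adjusted p = 0.0208) and Atp5j (906 to 699 TPM, -0.39, adjusted p = 0.0285, limma).

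The other lower members were Ndufb3 (130 to 87.1 TPM, -0.74) and Ndufb4 (158 to 90.1 TPM, -0.76) of the membrane arm of complex I and Uqcrb of complex III (863 to 529 TPM, -0.64, adjusted p = 0.0459, limma). Ndufs8 was the member that was higher, with 376 TPM (229 to 855) against 540 TPM (332 to 732), a log2 fold change of 0.45 (adjusted p = 0.0166, limma). Complex II stood apart by its sign, with 3 of 4 members positive and a median of 0.33, but 0 of them were called. Under median ratio scaling Ndufs8 was at 0.30 and no longer called (adjusted p = 0.223, limma). That scaling gave 0 members higher and 12 lower, with a median over the members of -0.30 (all genes 0.05). The share of all genes called under it is not given here. Against the 6 CR×CR embryos of set B, 0 members were called (0 over all genes) and the median was -0.10 (all genes 0.01). Single genes moved further than the median, with Cox6c at -0.28, Atp5g3 at -0.30, Atp5l at -0.24, Cox4i1 at -0.01 and Ndufs8 at 0.22 (each adjusted p = 0.9999, limma), while Ndufb3 stood at -0.67 and Ndufb4 at -0.59. The part of the set in these differences was not tested beyond that.

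RAG×WT morulae had 8 members lower and 0 higher of 79 (10.1% lower; over all genes 2.68% were called, 1.3% lower and 1.38% higher), and 66 of 79 were negative with a median of -0.15 against 0.01. Atp5k, a small subunit of the ATP synthase, went from 715 TPM (426 to 1243) in the 43 CR×CR morulae to 607 TPM (351 to 820) in the 28 RAG×WT morulae, a log2 fold change of -0.37 (SE 0.08, adjusted p = 0.0107, limma), with overlapping ranges. Ndufb4 (266 to 203 TPM, -0.42, adjusted p = 0.0173), Uqcrb (1464 to 1129 TPM, -0.29, adjusted p = 0.0181) and Atp5l (-0.29, adjusted p = 0.0457, limma) were called at both stages. The others were Atp5j2 (-0.31) of complex V, Ndufc1 (-0.33) and Ndufa6 (-0.41) of complex I and Cox7a2l (-0.27), which joins complexes III and IV. Against the 22 CR×CR morulae of set B, 0 members were called (3 over all genes) and the median was -0.06 (all genes -0.05), with Atp5k at -0.11, Uqcrb at -0.06, Atp5l at -0.07, Ndufb4 at -0.28 and Cox7a2l at -0.30. Leaving genes with low values in the fit gave 5 calls.

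GF×CR morulae had 13 members higher and 8 lower of 79 than CR×CR morulae (16.5% and 10.1%; over all 10893 genes 2.92% were higher and 27.3% lower). The median of the members was 0.06 and that of all genes -0.32. After scaling by median ratios these became 0.25 and -0.17, and 31 members were called higher and 0 lower. The share of all genes called under that scaling is not given here. Embryos of the groups also differed in how many genes were detected, with medians of 10191 genes at 1 TPM or more in CR×CR and 9263 in GF×CR morulae. With the number of genes as a covariate, 0 members were called (2 over all genes), and with set A controls only, 8 were higher and 7 lower (medians -0.01 and -0.24). The share of all genes called with set A controls is not given either.

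By complex, the higher members of GF×CR morulae were 7 in complex I, 1 in complex II, 2 in complex III and 3 in complex V, and the lower ones 1, 2, 0 and 4, with 1 more in complex IV. Ndufb10 of the membrane arm went from 256 TPM (150 to 567) in the 43 CR×CR to 414 TPM (215 to 646) in the 17 GF×CR morulae, a log2 fold change of 0.62 (SE 0.13, adjusted p = 0.000618, limma). Ndufa12 of the NADH arm (716 to 923 TPM, 0.57, adjusted p = 0.000825) and Uqcr11 of complex III (712 to 1099 TPM, 0.54, adjusted p = 0.000913, limma) were next. In each case the ranges overlapped.

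Within the ATP synthase the called members went both ways in GF×CR morulae. Of the catalytic head and central stalk 3 subunits were lower, with Atp5b at 1806 TPM (881 to 2271) against 1303 TPM (757 to 2140), a log2 fold change of -0.38 (adjusted p = 0.00209, limma), Atp5d at 757 against 641 TPM (-0.29) and Atp5a1, the alpha subunit, at -0.23. Of the c ring genes Atp5g1 was higher (1089 to 1338 TPM, 0.31, adjusted p = 0.00296, limma) and Atp5g2 lower (-0.44), and Atp5j of the peripheral stalk was higher (0.25). Complex II was split in the same way, with Sdhb higher (253 to 284 TPM, 0.39), and Sdha (195 to 164 TPM, -0.28) and Sdhc (78.3 to 67.0 TPM, -0.33) lower. With the number of genes as a covariate Atp5a1 changed sign to 0.01, as did Ndufs1, an iron-sulfur subunit of the NADH arm that was lower (-0.51 to 0.02). In the citric acid cycle 1 gene was higher and 6 lower of 17, with Dlst (-0.96) and Ogdh (-0.75) among the lower, while 19 genes of the mitochondrial ribosome were higher and 3 lower of 77. These counts stand beside the 2.92% of all genes called higher and 27.3% called lower, and with the number of genes as a covariate 2 genes in all were called.

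In 4-cell embryos the germ-free crosses gave 0 called members. In GF×CR against CR×CR, 0 of 80 were called (0.0102% of all genes), 1 was higher and 2 lower at an unadjusted p under 0.05 (1.25% and 2.5%; all genes 1.61% and 3.59%), and the median was -0.04 against -0.08. In CR×GF against the same controls, 0 of 80 were called (0.337% of all genes), 6 were higher and 1 lower at an unadjusted p under 0.05 (7.5% and 1.25%; all genes 6.41% and 4.97%), with a median of 0.07 against 0.08. The smallest adjusted p was that of Cox7b, which had 15.96 TPM (0 to 92.6) in the 25 CR×CR and 63.7 TPM (23.4 to 95.6) in the 9 CR×GF embryos, a log2 fold change of 2.02 (SE 0.52, adjusted p = 0.0722, limma). The ranges overlapped. Ndufa1, a membrane arm subunit, had a log2 fold change of 0.73 in the same comparison and Ndufa8 of -0.82. GF×CR against CR×GF likewise gave 0 of 80 (0.0101% of all genes), with Cox7b at -1.56 and 6 members lower at an unadjusted p under 0.05 (7.5%; all genes 2.03% higher and 4.4% lower).

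**Figure D4:**
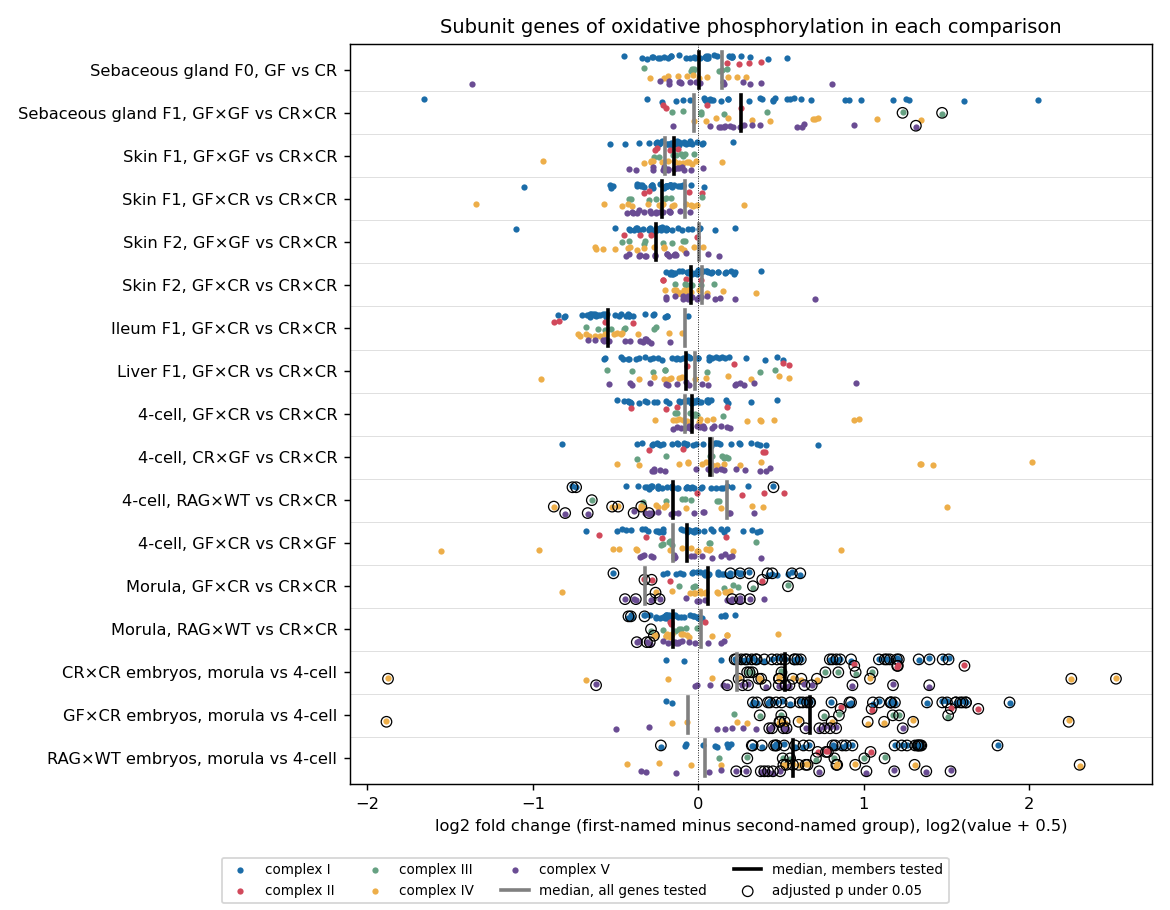
Log2 fold changes of all tested members in each of the 17 comparisons, 1 point per gene, coloured by complex, with the median over the members and over all genes tested as lines and a ring around each called member. The stage comparisons have medians of 0.53, 0.67 and 0.57, and all 78 members lie under 0 in ileum.

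In the SGs of F1 mice from GF parents most members had a positive log2 fold change. Of 75 tested members 3 were called higher and 0 lower (4% of the members; 0.717% of all genes were called and 0.564% called higher). At an unadjusted p under 0.05, 21 were higher and 0 lower (28% and 0%; all genes 6.86% and 5.34%), and 63 were positive, with a median of 0.26 against -0.03 over all genes. The groups did not overlap for 35 members (46.7%, of which 32 higher and 3 lower), against 30.2% of all genes. The 3 called genes are small subunits of complexes III and V.

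Atp5j, in the peripheral stalk of the ATP synthase, was at 25.6 and 32.2 CPM in CR×CR glands (n = 2) and at 68.5, 69.2 and 79.1 CPM in GF×GF glands (n = 3), a log2 fold change of 1.31 (SE 0.18, adjusted p = 0.0242, limma). Uqcrb was at 27.5 and 38.97 CPM against 71.3, 78.8 and 83.6 CPM, a log2 fold change of 1.23 (SE 0.19, adjusted p = 0.0346, limma). Uqcr11 was at 17.97 and 22.4 CPM against 45.8, 54.1 and 73.2 CPM, a log2 fold change of 1.47 (SE 0.24, adjusted p = 0.0396, limma). All GF×GF values of these genes lay above both CR×CR values. Cox5b was separated as widely (26.8 and 23.7 CPM against 55.3, 55.7 and 88.7 CPM) but had an adjusted p of 0.053 in limma.

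Other members differed less, and those given here include the lowest of their complexes. Cox4i1, the main general subunit of complex IV, was at 125 and 125 CPM against 124, 110 and 134 CPM, a log2 fold change of -0.03, and the groups overlapped. Atp5a1 had -0.16, Uqcrfs1, the Rieske protein of complex III, -0.16, Sdhb 0.26 and Sdhd -0.21. By complex the medians were 0.43 in complex IV, 0.38 in complex I, 0.25 in complex V, 0.08 in complex III and -0.07 in complex II. In complex I, 17 of 19 supernumerary subunits of the membrane arm were positive (median 0.45), with Ndufb4 the largest at 1.603, against 2 of 4 core subunits of the quinone module (median -0.01). The extremes of complex I were genes near the floor, with Ndufs8 at 5.89 and 0 CPM against 6.54, 12.3 and 4.06 CPM and Ndufa9 at 1.47 and 3.19 CPM against 0, 0 and 2.01 CPM.

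The calls in F1 SGs rest on 5 samples. Without any 1 of them, 0 members were called, and the same was so with a covariate of Y-linked genes and with no filter on low values, while median ratio scaling gave 5 and a filter at 5 CPM gave 6. The median stayed positive without any 1 sample (0.17 to 0.33). Summed over all members, the CR×CR samples had 5074 and 4299 CPM and the GF×GF samples 5454, 5063 and 5702 CPM, which overlapped. Of the transcripts of the mitochondrial genome 8 of 13 were called higher, with sums of 8445 and 9273 CPM in CR×CR and 18422, 21658 and 18922 CPM in GF×GF, and mt-Atp6, a subunit of complex V, went from a mean of 296 to 1975 CPM (log2 fold change 2.76). With these transcripts left out of the total, 6 members were called. The cytosolic ribosome had 12 called higher and 1 lower of 81 (median 0.38), while the assembly factors had 0 of 46 (median -0.06). Fibroblast markers also differed, with sums over 7 genes of 1882 to 2276 CPM in CR×CR and 809 to 1638 CPM in GF×GF, and their part in the result was not tested.

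**Figure D5:**
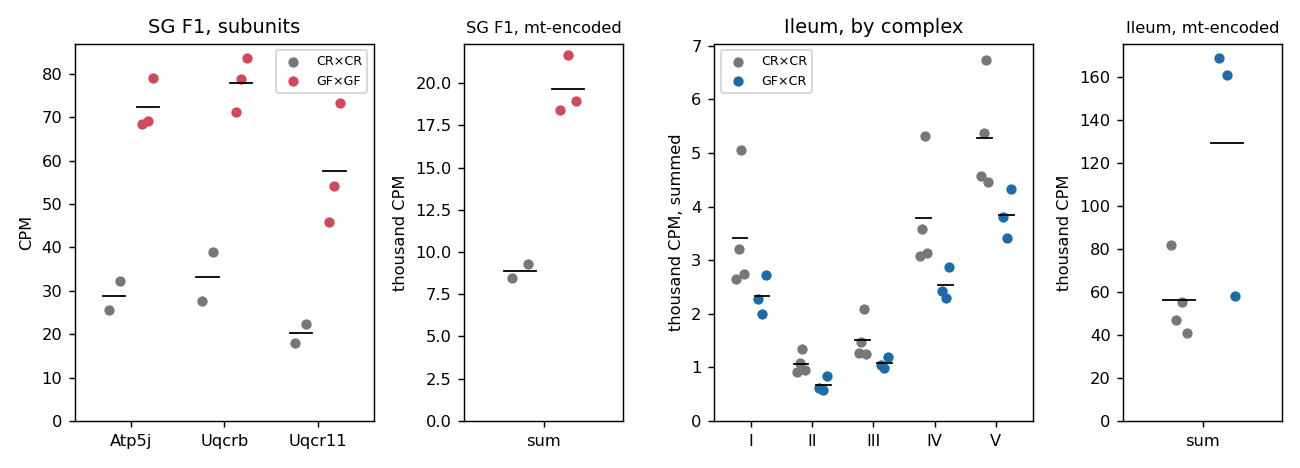
Values in each F1 SG sample and each ileum sample, by cross, with the mean of each group as a line, for 3 called members in SGs, the sum of each complex in ileum and the summed transcripts of the mitochondrial genome in both (CPM, with the unit of each panel on its axis). In SGs the 3 GF×GF samples lie above both CR×CR samples for Atp5j, Uqcrb and Uqcr11, and in ileum the 3 GF×CR samples lie under the 4 CR×CR samples for complexes II to V and overlap with them for complex I.

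In SGs of F0 mice, GF against CR, 0 of 74 members were called (2.2% of all genes). At an unadjusted p under 0.05, 4 were higher and 1 lower (5.41% and 1.35%; all genes 13.8% and 6%), and the median was 0.00 against 0.14 over all genes, or -0.13 against 0.01 after median ratio scaling. The groups did not overlap for 12 members (16.2%, all genes 24.9%). Ndufs4, of the NADH arm, was at 15.3, 14.6 and 11.7 CPM in CR and 20.3, 21.2 and 19.2 CPM in GF, a log2 fold change of 0.54. Ndufb2 was at 39.6, 33.8 and 39.5 CPM against 27.4, 24.8 and 30.1 CPM, a log2 fold change of -0.45 (adjusted p = 0.166, limma). These genes were separated between the groups in opposite directions. Uqcrb, called in F1 glands, had -0.33 here, and complex II had 4 positive members with a median of 0.27, with Sdhd at 17.7, 27.5 and 24.8 CPM in CR and 30.4, 31.7 and 27.9 CPM in GF. Summed over all members the F0 groups overlapped (4264, 4290 and 4871 CPM in CR, 4697, 4228 and 4875 CPM in GF).

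In the ileum of F1 mice with a GF father, every one of the 78 tested members had a negative log2 fold change, but 0 were called (0% of all genes were). At an unadjusted p under 0.05, 27 were lower and 0 higher (34.6% and 0%; all genes 2.96% and 1.54%), and for 26 members (33.3%) the groups did not overlap, against 5.6% of all genes. The median was -0.54 against -0.08 over all genes. Complex II had the lowest median (-0.70, with 3 of 4 at an unadjusted p under 0.05), then complex I (-0.56, 10 of 35), complex IV (-0.54, 7 of 14), complex III (-0.49, 4 of 8) and complex V (-0.45, 3 of 17).

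Sdhd, a membrane anchor of complex II, had the largest difference, with 272, 312, 462 and 276 CPM in CR×CR ileum (n = 4) and 155, 142 and 245 CPM in GF×CR ileum (n = 3). Its log2 fold change was -0.88 (SE 0.26, adjusted p = 0.943, limma), and all GF×CR values lay under all CR×CR values. Cox6b1, a general subunit of complex IV, was at 184, 217, 349 and 201 CPM against 134, 117 and 171 CPM, a log2 fold change of -0.73. Sdhb was at 166, 178, 212 and 145 CPM against 135, 119 and 143 CPM, a log2 fold change of -0.40. These genes too were separated between the groups, and the CR×CR sample with the highest value was the same in each, replicate 3.

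In several other members the groups overlapped by 1 sample. Ndufb3 was at 63.2, 69.0, 132 and 72.2 CPM against 45.9, 29.3 and 64.4 CPM, a log2 fold change of -0.85, and Uqcr10 of complex III at 74.9, 99.3, 177 and 84.6 CPM against 65.0, 51.3 and 78.7 CPM, a log2 fold change of -0.68. Atp5g1 was at 92.2, 147, 239 and 113 CPM against 85.5, 77.2 and 99.1 CPM, a log2 fold change of -0.67. In these 3 genes it was GF×CR replicate 3 that reached the lowest CR×CR value. The differences nearest to 0 were those of Ndufa1 (-0.06), Cox7a2l (-0.10) and Atp5d (-0.17).

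Summed over all members, the CR×CR ileum samples had 12477, 14699, 20545 and 12514 CPM and the GF×CR samples 10147, 9265 and 11950 CPM, without overlap. Complex II showed the same separation (912, 1073, 1347 and 944 CPM against 608, 570 and 835 CPM). Without CR×CR replicate 3 the median of the members was -0.35 against -0.04 over all genes. Transcripts of the mitochondrial genome went the other way, with sums of 81914, 46810, 55281 and 40997 CPM against 169010, 160800 and 57985 CPM, and they take a share of the same total. With them left out of the total the median of the members was -0.43 against 0.03. Other lists were also negative, with medians of -0.53 for the mitochondrial ribosome (77 of 78 negative), -0.43 for the cytosolic ribosome (81 of 83 negative), -0.45 for the assembly factors and -0.41 for the citric acid cycle.

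Marker sums in ileum overlapped for enterocytes (26252 to 56129 CPM in CR×CR, 30889 to 39001 CPM in GF×CR, 8 genes), goblet cells (6104 to 8142 against 2468 to 7316 CPM, 6 genes) and Paneth cells (259 to 2105 against 219 to 352 CPM, 6 genes). Their part in the member values was not tested.

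In F1 skin most members had a small negative log2 fold change in both crosses, which share their CR×CR controls. For GF×GF, 0 of 80 members were called (0.09% of all genes) and 0 had an unadjusted p under 0.05 (all genes 0.462% higher and 8.47% lower), and 75 were negative with a median of -0.15, which stands beside -0.20 over all genes and turns to 0.07 after median ratio scaling. The groups did not overlap for 1 member (1.25%, all genes 6.5%). For GF×CR, 0 of 80 were called (0.0537% of all genes), 8 were lower at an unadjusted p under 0.05 (10%; all genes 1.31% higher and 5.77% lower), and 76 were negative with a median of -0.22 against -0.08. Here 3 members did not overlap (3.75%, all genes 4.5%).

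The muscle isoforms were negative in GF×CR skin, as were most members, and 0 of them were called. Cox6a2 was at 32.2, 56.4, 60.2, 38.6 and 69.0 CPM in CR×CR and 37.03, 34.3 and 28.2 CPM in GF×CR, a log2 fold change of -0.57 (adjusted p = 0.68, limma), and the groups overlapped. Cox7a1 was at 21.3, 25.95, 28.8, 15.1 and 31.3 CPM against 24.5, 15.2 and 13.5 CPM (-0.46), and Cox8b at 38.97, 69.8, 64.5, 37.1 and 63.8 CPM against 57.2, 43.5 and 36.4 CPM (-0.24), both with overlap. Skeletal muscle markers were also lower in GF×CR, with sums of 24594 to 34873 CPM in CR×CR (median 26073) and 12439 to 23265 CPM in GF×CR (median 19447). Among the controls, replicate 4 had the highest marker sum (34873 CPM) and the lowest sum of the muscle isoforms (90.8 CPM). Across the GF×CR samples both sums fell from replicate 1 to replicate 3. The part of the markers in the member values was not tested. CR×CR replicate 4, whose mitochondrial transcripts summed to 129280 CPM against 25607 to 29291 CPM in the other controls, is in both comparisons. Without it the medians of the members were -0.19 (GF×GF) and -0.28 (GF×CR), against -0.19 and -0.06 over all genes. Other samples moved the medians as much, to -0.28 without GF×GF replicate 1 and -0.01 without GF×GF replicate 3 in the one comparison, and to -0.34 without GF×CR replicate 1 and -0.13 without GF×CR replicate 3 in the other.

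In F2 skin of the GF×GF line, 0 of 79 members were called (0.0418% of all genes), 5 were lower at an unadjusted p under 0.05 (6.33%; all genes 0.901% higher and 0.848% lower), and 72 were negative with a median of -0.26 against 0.00. The groups did not overlap for 10 members (12.7%), all of them lower in GF×GF, against 1.4% of all genes. Sdhc was at 68.2, 51.7, 65.6, 61.6 and 54.2 CPM in CR×CR and 49.5, 51.0 and 33.3 CPM in GF×GF, a log2 fold change of -0.45, without overlap. Complex IV had the lowest median (-0.33), with Cox7a1 at 24.4, 23.2, 40.7, 32.9 and 18.3 CPM against 24.7, 11.1 and 18.4 CPM (-0.63) and Cox8b at 46.7, 51.3, 73.1, 61.6 and 41.4 CPM against 42.8, 25.6 and 38.5 CPM (-0.62). For both muscle forms the groups overlapped, and the sums of skeletal muscle markers did too (21957 to 34119 CPM against 21768 to 28844 CPM). Adjusted p was 1 for each of these in limma.

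F2 skin of the GF×CR line, with 5 CR×CR and 6 GF×CR samples, gave 0 of 79 called (0% of all genes) and 0 at an unadjusted p under 0.05 (all genes 1.42% higher and 0.803% lower), with a median of -0.04 against 0.02. No member was free of overlap (0.237% of all genes were). Summed values ran from 2813 to 5769 CPM over these 11 samples, with GF×CR replicate 6 the lowest.

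In the liver of F1 mice with a GF father the members went both ways. Of 78 tested, 0 were called (0.0343% of all genes), 5 were higher and 7 lower at an unadjusted p under 0.05 (6.41% and 8.97%; all genes 6.09% and 9.74%), and the median was -0.07 against -0.02. The groups did not overlap for 16 members (20.5%, all genes 15.8%), 7 higher and 9 lower. Among the higher, Uqcrb was at 148, 156, 159 and 189 CPM in CR×CR and 217, 216 and 240 CPM in GF×CR, a log2 fold change of 0.46, and Ndufb3 at 37.5, 54.6, 55.6 and 47.5 CPM against 69.9, 69.6 and 67.8 CPM, a log2 fold change of 0.51. Among the lower, Ndufa11 of the membrane arm was at 198, 122, 107 and 125 CPM against 106, 87.5 and 79.1 CPM, a log2 fold change of -0.57, and Uqcrq of complex III at 1225, 778, 736 and 819 CPM against 699, 596 and 498 CPM, a log2 fold change of -0.55. In these genes CR×CR replicate 1 stood at the end away from the GF×CR samples.

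Complex II was the complex with a positive median in liver (0.36), with 3 of 4 members positive and 1 at an unadjusted p under 0.05. Sdhd was at 73.6, 212, 225 and 91.4 CPM in CR×CR and 190.1, 214 and 185 CPM in GF×CR, a log2 fold change of 0.55, and the groups overlapped. Hepatocyte markers moved with the groups, with sums over 8 genes of 68048 to 92533 CPM in CR×CR and 105767 to 116451 CPM in GF×CR, and their part in the member values was not tested. Transcripts of the mitochondrial genome are not in the liver table used here.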

How the data were processed

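RNA-seq values of 208 samples were used as deposited. For SGs, skin and ileum the authors assigned reads to genes with Kallisto and deposited CPM values. For liver the study's methods name RSEM and normalization to TPM. The liver values were still read as CPM, since many of their low values share a step within a sample. That share was 46.1 to 95.3% over liver samples, so the unit is not certain, and the liver levels given depend on it. The embryo values were made by the authors with RSEM on mm10 and were read as TPM although the deposited table is named CPM. The submitters' notes also name R 4.2, and the versions of Kallisto and RSEM are not given in the sources used here. The filter, TMM scaling and voom step of the study's methods come after these values. For SGs and skin, 27 genes whose symbols had become dates were left out. CR×CR skin mice stand in a table for each comparison, and tests were made within a table.

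The 17 comparisons of 2 groups were fitted with limma 3.58.1 in R 4.3.3 on log2(value + 0.5), with a trend of variance on level, over genes with a value of 1 or more in at least the number of samples of the smaller group, and p-values were adjusted over all genes by the Benjamini-Hochberg method. A fold change on this scale understates that of low genes. The design assumed CPM, and limma was applied to TPM in the same way. The fit was tested on simulated data. Count tools were not run, because low values were whole multiples of a step, within 0.02 of a step, in 2.40 to 95.3% of cases over samples. Depth is therefore not given, and a value of 0 is a gene listed at 0. Figures and sums were made with Python 3.11.15.

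Members and lists were chosen with earlier results of these data known. Genes to name were drawn from called members (up to 12 by smallest p per comparison), the members with the highest and lowest fold change of each complex, the tissue isoforms of complex IV, the embryo members with the highest and lowest level per complex, and up to 3 called genes of each other list. Others in the text were named after their values were seen. The labels do not say whether replicate numbers pair the samples. In ileum, samples of the same number had correlations of deviations of 0.212 to 0.273 over 3 pairs. There 2 of the 3 GF×CR samples correlated best with the CR×CR sample of their own number, which does not establish a pairing. Promoters are RefSeq windows of GRCm38.p6, 1 per gene, from the start farthest upstream.

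As alternatives, the pseudocount was 0.1 or 1, the filter was dropped or set at 5, and further fits used median ratio scaling, the replicate number as a block, Y-linked genes as a covariate, leaving out each tissue sample, leaving out embryos with few genes, each embryo's count of detected genes as a covariate and controls of the same set. The block fits kept only samples whose replicate number occurs in both groups. The comparison of sets and the removal of mitochondrial transcripts from the total were chosen after seeing the data.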

Additional observations from a re-analysis of the deposited data

Results flagged for a closer look

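In CR×CR F1 skin, replicate 4 had 129280 CPM of mitochondrial transcripts, far from the nearest of the other controls (29291 CPM). In F2 skin, GF×CR replicate 4 had 54492 CPM of them, with the nearest other sample at 32675 CPM. Among 4-cell CR×GF embryos, replicate 1 had the highest sum of the muscle isoforms of complex IV (86.67 TPM, nearest other 50.7 TPM). These are 3 of 46 groups and measures that were searched for a sample that stands apart, where chance gives about 1 in 20.

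The mean summed level of complex II, the entry point for electrons from succinate, went in opposite directions between tissues of F1 mice with a GF father. The ratio of the GF×CR mean to the CR×CR mean was 1.168 in liver, where every GF×CR sample was above the mean of the controls, and 0.866 in skin and 0.6275 in ileum, where every GF×CR sample was below it. The groups overlapped in liver (GF×CR 947.9 to 987.4 CPM, CR×CR 638.5 to 980.5 CPM) and in skin (213.9 to 265 against 224.7 to 332.4 CPM), but not in ileum. The mean sum over all members was lower in GF×CR in each tissue. It was 3605.5 against 4201.9 CPM in skin, 10454 against 15059 CPM in ileum and 17774 against 19037 CPM in liver. This was the only such case in a search of the sums over all members and over each complex, across several sets of comparisons. How often such a search finds a case by chance was not worked out. The difference between the tissues was not tested, and each tissue stands in its own table.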

How the results depend on the processing

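In F1 SGs the 3 called members became 0 with no filter on low values, with the replicate number as a block and with a covariate of Y-linked genes. The block fit there also left out GF×GF replicate 3. The calls became 5 under median ratio scaling, 6 with a filter at 5 CPM and 6 with mitochondrial transcripts out of the total. Leaving out 1 sample gave 0 to 0. The 12 members called in RAG×WT 4-cell embryos became 6 with no filter and 0 against set B controls. The 8 called in RAG×WT morulae became 5 with no filter, 34 with the replicate block and 0 against set B controls. That block fit kept 28 pairs of embryos by number, so it also left out some CR×CR controls, and the 2 changes cannot be told apart. The 21 called in GF×CR morulae became 2 with the replicate block, which likewise kept only 17 pairs, and 0 with each embryo's count of detected genes as a covariate. Controls of set B are fewer, and otherwise the cause was not tested. Under that covariate Atp5a1 (0.0086) and Ndufs1 (0.0221) changed sign, as did Ndufs8 between RAG×WT stages under median ratio scaling (0.0215). Median ratio scaling moved the median of the members to -0.13 in F0 SGs and to 0.07 in F1 GF×GF skin, and the Y-linked covariate moved it to 0.54 in F1 SGs. Of the other pairs of a named gene and an alternative, 2585 kept their side of the threshold, 107 were no longer past it and 8 came past it. A change of sign was not counted for genes called in neither fit. Counts of calls over all genes under these alternatives are not given, except where stated with the comparisons.

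In ileum, where a pairing by number is not established, the block gave 0 called members, as did the fit without it. In the other comparisons the labels state no pairing either, and correlations lay between -0.248 and 0.476. In liver the Y-linked covariate gave no value. With 2 to 6 mice a group only large differences could be called in tissues, and the number of reads behind low values, such as those of Ndufa9 in SGs, is unknown.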
